A study of Mus musculus with 6 samples.

Results

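The expression of 33 interferon-stimulated genes was compared between kidney cortex of C3aR-/- control mice and kidney cortex of WT control mice, on 3 one-colour microarrays of each genotype. C3aR-/- mice lack the receptor for C3a, a fragment released when complement component C3 is cleaved. Per the labels, all mice were male C57BL/6, began the study at 8 weeks of age, were fed chow of which 10% of the calories came from fat, received vehicle in place of streptozotocin, and were killed 20 weeks after the time of induction. No mouse with induced diabetes was used here, and the labels do not give the part of the receptor gene that was deleted or whether each array holds the RNA of 1 animal, so p-values measure the spread between these arrays.

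The 33 genes were chosen by name, as a list of well-known interferon-stimulated genes, out of 36943 named genes with a probe. Each gene was represented by its brightest probe among the probes that every array of C3aR-/- cortex, of WT cortex or of both put well above background, a filter passed by 20490 genes in all and by 32 of the 33. A level is the log2 signal of a spot minus the 75th percentile of its array, so 0 is that percentile, and a difference is C3aR-/- minus WT on that scale. A gene was called when the limma test fitted across all 20490 genes gave a Benjamini-Hochberg adjusted p under 0.05. All C3aR-/- arrays lay on one slide and all WT arrays on another, each slide with its own scan, so genotype and slide cannot be told apart in any difference below.

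Interferon-stimulated genes are switched on when type I or type III interferons bind their receptors and the kinases JAK1 and TYK2 phosphorylate STAT2, which joins IRF9 in the complex ISGF3. That complex binds the interferon-stimulated response element (ISRE), whereas interferon gamma acts mainly at the gamma-activated site (GAS). The products block viral entry, translation and replication, sense foreign nucleic acid, or restrict intracellular pathogens, and in kidney they are known as markers of tubular and immune cell responses in viral infection and lupus nephritis.

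The promoters of 25 of the 33 genes were found in a RefSeq table of windows from 250 bases before to 50 bases after the start of each gene (GRCm38.p6). The table had no entry for Oas2, Usp18, Zbp1, Mx1, Mx2, Iigp1, Rtp4 and Parp14. The ISRE was searched as GAAA, any 2 bases, then GAAA, and the GAS as TTCNNNGAA, on both strands and with overlapping matches counted. An ISRE match lay in the windows of 14 of the 25 genes (56%), against 3.99% of the 27025 genes in the table. The longer form that ends in a further C lay in 11 of the 25 (44%), against 0.944% of all genes. A GAS match lay in 6 of the 25 (24%), against 9.55% of all genes. These are matches of letters and not measured binding. The stretches below show the shared ISRE letters in 8 genes whose roles differ, each read on the strand of its gene with the matches in capitals. The matches read TTTC where the element runs against the gene. Isg15 held 3 overlapping matches, the first beginning 78 bases before the start.
Isg15, chr4:156200863-156200908, minus strand: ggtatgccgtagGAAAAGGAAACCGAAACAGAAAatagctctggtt
Ifit1, chr19:34640773-34640825, plus strand: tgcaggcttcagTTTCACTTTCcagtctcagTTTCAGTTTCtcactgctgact
Ifit3, chr19:34583361-34583428, plus strand: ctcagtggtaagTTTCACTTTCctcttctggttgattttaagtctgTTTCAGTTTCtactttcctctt
Oas1a, chr5:120907518-120907557, minus strand: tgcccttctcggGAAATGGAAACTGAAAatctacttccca
Bst2, chr8:71537575-71537614, minus strand: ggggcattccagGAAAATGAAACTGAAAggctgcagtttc
Rsad2, chr12:26456551-26456584, minus strand: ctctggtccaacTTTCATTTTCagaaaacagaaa
Stat2, chr10:128270264-128270297, plus strand: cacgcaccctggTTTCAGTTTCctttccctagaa
Irgm1, chr11:48871423-48871462, minus strand: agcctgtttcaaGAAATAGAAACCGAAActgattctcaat

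The GAS letters are shown for Irf1, which is known for its response to interferon gamma, and for Igtp, whose window also held an ISRE match. In both, the capitals mark TTCNNNGAA.
Irf1, chr11:53769912-53769944, plus strand: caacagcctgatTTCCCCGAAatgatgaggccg
Igtp, chr11:58199499-58199531, plus strand: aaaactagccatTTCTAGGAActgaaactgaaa
Ifi44, the gene called higher below, held no exact match to either motif in its window. The 150 bases before its start are given for comparison, with no exact match to mark. They do hold tttcagttttcgtttc, where copies of TTTC lie at spacings that were not searched. The exact search leaves out such near matches, so it cannot show that Ifi44 lacks an ISRE.
Ifi44, chr3:151749911-151750060, minus strand: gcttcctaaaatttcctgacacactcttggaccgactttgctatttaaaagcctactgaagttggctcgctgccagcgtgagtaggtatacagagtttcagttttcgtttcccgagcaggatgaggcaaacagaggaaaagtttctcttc

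Few of the interferon-stimulated genes differed between the genotypes beyond the spread of their arrays. Of the 32 tested, 1 was called higher in C3aR-/- cortex (Ifi44), none was called lower, and 31 did not pass the test, so that 3.12% were called, against 14.3% of all 20490 genes. Higher calls made up 7.05% and lower calls 7.26% of all genes. At an unadjusted p under 0.05, 2 members (6.25%) were higher (Ifi44 and Cmpk2) and 0 lower, against 18.1% higher and 15.3% lower among all genes. The difference was positive in 20 members and negative in 12, with a median of 0.11, against a median of 0.02 over all genes. Differences ranged from -0.64 for Irf1 to 0.67 for Ifi44. C3aR-/- and WT arrays did not overlap in 5 of the 32 members (15.6%), of which Ifi44, Cmpk2, Irf9 and Ddx58 were higher and Ifi35 lower, against 41.3% of all genes (22.2% higher and 19.1% lower). The 95% interval of the difference lay within -1 to 1 in 29 members, as it did in 88.7% of all genes, and within -0.5 to 0.5 in 13. The lowest bound of any member was -1.54 (Iigp1) and the highest was 0.90 (Ifi44). A 2-fold rise therefore lay outside the interval of all 32 members, and a 2-fold fall outside that of all but Irf1, Igtp and Iigp1. In whole cortex, fewer cells expressing a gene and less RNA per cell cannot be told apart.

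**Figure D1:**
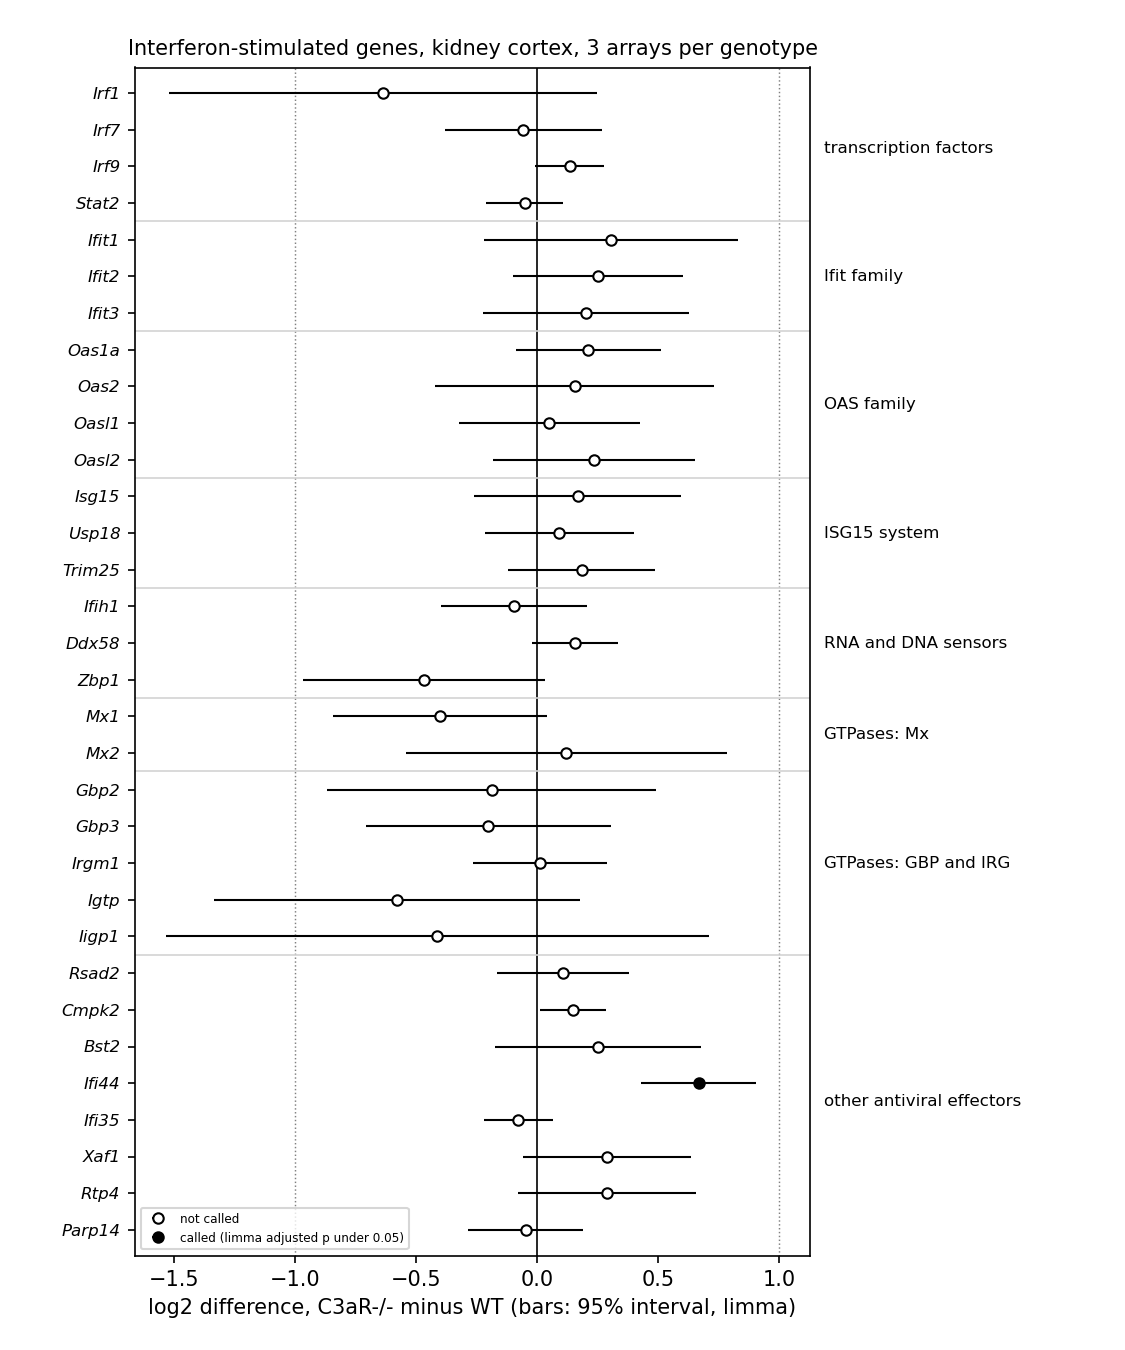
Difference in log2 level, C3aR-/- minus WT, of the 32 tested interferon-stimulated genes, grouped by role, with the 95% interval from limma (3 arrays per genotype). The filled point is Ifi44 at 0.67, the member called, and dotted lines mark a 2-fold change in either direction.

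Among the transcription factors that carry the interferon signal, none of 4 passed the test, with 1 positive and 3 negative differences and a median of -0.06. Irf9, the DNA-binding subunit of ISGF3, measured 1.03, 0.98 and 1.07 on C3aR-/- arrays 1 to 3, against 0.91, 0.85 and 0.92 on WT arrays 1 to 3. Every C3aR-/- value lay above every WT value, by a difference of 0.13 (SE 0.06, adjusted p = 0.166). Stat2, the ISGF3 subunit that supplies most of its activation function, measured 0.50, 0.52 and 0.48 in C3aR-/- and 0.47, 0.54 and 0.64 in WT cortex. The groups overlapped, and the difference of -0.05 had an interval of -0.21 to 0.11. Irf7, the factor that amplifies interferon alpha production, measured 1.52, 1.62 and 1.31 in C3aR-/- and 1.44, 1.40 and 1.78 in WT cortex (difference -0.06, adjusted p = 0.783), and its other kept probe differed by 0.33, with the opposite sign. Irf1, a factor induced by interferon gamma, measured -0.05, 1.31 and 1.05 in C3aR-/- and 1.13, 1.52 and 1.58 in WT cortex. The low value of C3aR-/- replicate 1 set much of its difference, which was -0.64 (SE 0.36, adjusted p = 0.267) with that array and -0.23 (adjusted p = 0.415) without it. A dimmer Irf1 probe, not well above background in WT cortex, differed by 0.33 (adjusted p = 0.187).

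The Ifit family, whose proteins bind viral RNA and block its translation, had positive differences in 3 of 3 members and none passed the test. The median difference was 0.25. Ifit1, which recognises RNA lacking a methylated cap, measured -2.32, -1.72 and -2.26 in C3aR-/- cortex, against -2.63, -2.51 and -2.07 in WT cortex (difference 0.30, SE 0.21, adjusted p = 0.364). Ifit2 measured -2.73, -2.52 and -2.55 in C3aR-/- and -2.98, -3.03 and -2.55 in WT cortex (difference 0.25, adjusted p = 0.27). Ifit3, which stabilises IFIT1 in human cells, measured -0.05, 0.32 and -0.02 in C3aR-/- and -0.27, -0.30 and 0.21 in WT cortex (difference 0.20, adjusted p = 0.455). In all 3 genes C3aR-/- replicate 2 and WT replicate 3 were the highest arrays of their genotypes, and the groups overlapped through WT replicate 3. The sign was positive in each of the 3 genes under all 17 alternative settings and left-out arrays.

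The OAS family senses double-stranded RNA, and its active members make the 2-5A that switches on RNase L. It had 4 tested members, all with positive differences and none called. Oas1a measured -0.40, -0.05 and -0.08 in C3aR-/- and -0.53, -0.37 and -0.27 in WT cortex (difference 0.21, SE 0.12, adjusted p = 0.279). Oas2 measured -2.35, -2.10 and -2.03 in C3aR-/- and -2.57, -2.59 and -1.78 in WT cortex (difference 0.15, adjusted p = 0.68). The single value of WT replicate 3 lay above all C3aR-/- values of Oas2. Oasl2 measured -1.10, -0.73 and -0.95 in C3aR-/- and -1.33, -1.34 and -0.83 in WT cortex (difference 0.23, adjusted p = 0.377). Oasl1, which in mice limits translation of Irf7, measured -1.16, -0.72 and -0.95 in C3aR-/- and -1.14, -1.08 and -0.75 in WT cortex. Its difference of 0.05 (adjusted p = 0.845) was close to 0, and 0.35 on its other kept probe. Oas3 was not well above background on any array and is counted apart. It measured -6.18, -5.77 and -6.05 in C3aR-/- and -7.30, -7.27 and -7.32 in WT cortex, all below the lowest signal of any probe well above background on the same array (-5.47 to -5.09), so no fold is given.

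Of the ISG15 system, 3 of 3 members had positive differences and none was called. Isg15, a ubiquitin-like modifier attached to proteins after interferon, measured 0.23, 0.73 and 0.39 in C3aR-/- and 0.03, 0.30 and 0.53 in WT cortex (difference 0.17, SE 0.17, adjusted p = 0.539). Usp18, the enzyme that removes ISG15 and dampens the type I receptor, measured -2.37, -2.0 and -2.31 in C3aR-/- and -2.48, -2.24 and -2.23 in WT cortex (difference 0.09, adjusted p = 0.643). The genotypes overlapped in both genes. Trim25, a ubiquitin and ISG15 ligase that acts with RIG-I in human cells, measured 5.05, 4.84 and 5.05 in C3aR-/- and 4.92, 4.91 and 4.55 in WT cortex (difference 0.18, adjusted p = 0.347).

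The 3 cytosolic sensors moved in no common direction. Ddx58, the gene of the RNA sensor RIG-I, measured 0.66, 0.85 and 0.68 in C3aR-/- and 0.59, 0.54 and 0.58 in WT cortex. The groups did not overlap, and the difference of 0.16 (SE 0.07) had an adjusted p of 0.19. Its other kept probes differed by -0.30 and 0.29, so the probes gave no common sign. Ifih1, the gene of the long-RNA sensor MDA5, measured -0.87, -0.51 and -0.74 in C3aR-/- and -0.76, -0.63 and -0.45 in WT cortex (difference -0.10, adjusted p = 0.617). Zbp1, a sensor of Z-form nucleic acid that starts necroptosis, measured -3.56, -2.79 and -3.28 in C3aR-/- and -2.91, -2.58 and -2.74 in WT cortex. Its difference of -0.47 (SE 0.20, adjusted p = 0.169) did not pass the test, and C3aR-/- replicate 2 lay within the WT range.

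The Mx GTPases, which trap viral nucleocapsids, had 1 positive and 1 negative difference. Mx1 measured -4.75, -4.71 and -5.11 in C3aR-/- and -4.49, -4.73 and -4.14 in WT cortex (difference -0.40, SE 0.18, adjusted p = 0.179). Mx2 measured -3.84, -3.46 and -3.65 in C3aR-/- and -4.31, -3.75 and -3.25 in WT cortex (difference 0.12, adjusted p = 0.782), where the highest WT array was 2.09-fold above the lowest. Mx1 lay close to the lowest signals that counted as above background (-5.47 to -5.09).

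Of the guanylate-binding proteins and immunity-related GTPases, which attack the vacuoles of intracellular pathogens and respond strongly to interferon gamma, 4 of 5 had negative differences, none was called, and the median was -0.20. Igtp measured 1.31, 1.86 and 2.30 in C3aR-/- and 2.01, 2.84 and 2.36 in WT cortex (difference -0.58, SE 0.31, adjusted p = 0.243). Iigp1, an effector that coats parasite vacuoles, measured 0.39, 0.80 and 1.6 in C3aR-/- and 0.60, 2.10 and 1.33 in WT cortex (difference -0.41, SE 0.46, adjusted p = 0.563). The arrays of a single genotype differed more than the genotypes did: Iigp1 spanned 2.32-fold among C3aR-/- and 2.82-fold among WT arrays, and Igtp 1.99-fold and 1.77-fold. Its other kept probe gave Iigp1 a difference of 0.31, of the opposite sign. Gbp2 measured -0.24, 0.31 and 0.39 in C3aR-/- and -0.14, 0.79 and 0.38 in WT cortex (difference -0.19, adjusted p = 0.664). Gbp3 measured -0.72, -0.07 and -0.35 in C3aR-/- and -0.48, -0.11 and 0.07 in WT cortex (difference -0.20, adjusted p = 0.527). Irgm1, a regulator that protects host membranes from the other GTPases of its family, measured 1.46, 1.71 and 1.71 in C3aR-/- and 1.57, 1.79 and 1.49 in WT cortex, with a difference of 0.01 (interval -0.27 to 0.29).

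Of the 8 other antiviral effectors, 6 had positive and 2 negative differences, with a median of 0.20, and Ifi44 was called. Ifi44, a cytoplasmic protein widely used as an interferon marker, measured -0.83, -0.65 and -0.74 in C3aR-/- cortex, against -1.53, -1.46 and -1.24 in WT cortex. All 3 C3aR-/- arrays lay above all 3 WT arrays. The level averaged -0.74 ± 0.09 in C3aR-/- and -1.41 ± 0.15 in WT cortex (SD, n = 3 each), a 1.59-fold rise (difference 0.67, SE 0.10, limma adjusted p = 0.0149, interval 0.43 to 0.90). The probe lies at chr3:151394035-151394094 (mm9). A second probe (chr3:151409005-151409064, mm9) measured -2.75, -3.27 and -3.04 in C3aR-/- and -3.55, -3.47 and -3.33 in WT cortex, again without overlap, with a difference of 0.43. It did not pass the test when it stood for the gene (adjusted p = 0.0976). The call on the brighter probe was also lost without WT replicate 2 (adjusted p = 0.0559) and without C3aR-/- replicate 3 (adjusted p = 0.0578), with differences of 0.64 and 0.67.

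Cmpk2, a mitochondrial nucleotide kinase, measured 0.76, 0.84 and 0.84 in C3aR-/- and 0.67, 0.65 and 0.68 in WT cortex. The groups did not overlap and the arrays of a genotype lay within 1.06-fold of each other, but the difference of 0.15 (SE 0.06, interval 0.01 to 0.28) had an adjusted p of 0.129. Its neighbour on chromosome 12, Rsad2, the gene of viperin, which makes a chain-terminating nucleotide, measured 1.12, 1.09 and 0.86 in C3aR-/- and 1.08, 0.77 and 0.90 in WT cortex (difference 0.11, adjusted p = 0.537). Ifi35, a binding partner of NMI, measured 1.95, 1.92 and 1.91 in C3aR-/- and 1.96, 2.07 and 1.99 in WT cortex. It was the only member whose C3aR-/- arrays all lay below the WT arrays, by a difference of -0.08 (SE 0.06, adjusted p = 0.395), and its other kept probe differed by 0.02.

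The remaining effectors overlapped between the genotypes. Bst2, the gene of tetherin, which holds budding virions on the cell surface, measured 0.61, 1.24 and 0.97 in C3aR-/- and 0.56, 0.63 and 0.87 in WT cortex (difference 0.25, adjusted p = 0.356). Xaf1, a pro-apoptotic zinc finger protein, measured -1.67, -1.30 and -1.58 in C3aR-/- and -1.75, -2.03 and -1.64 in WT cortex (difference 0.29, adjusted p = 0.211). In both genes C3aR-/- replicate 2 was the highest array and C3aR-/- replicate 1 lay among the WT values. Rtp4, a chaperone of membrane receptors, measured -0.04, 0.44 and 0.13 in C3aR-/- and -0.19, -0.24 and 0.10 in WT cortex (difference 0.29, adjusted p = 0.234). Parp14, an ADP-ribosyltransferase, measured 0.19, 0.50 and 0.32 in C3aR-/- and 0.29, 0.43 and 0.43 in WT cortex (difference -0.05, adjusted p = 0.757). Across the 33 genes, 12 had a second kept probe, and in 7 of these the kept probes differed in sign.

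**Figure D2:**
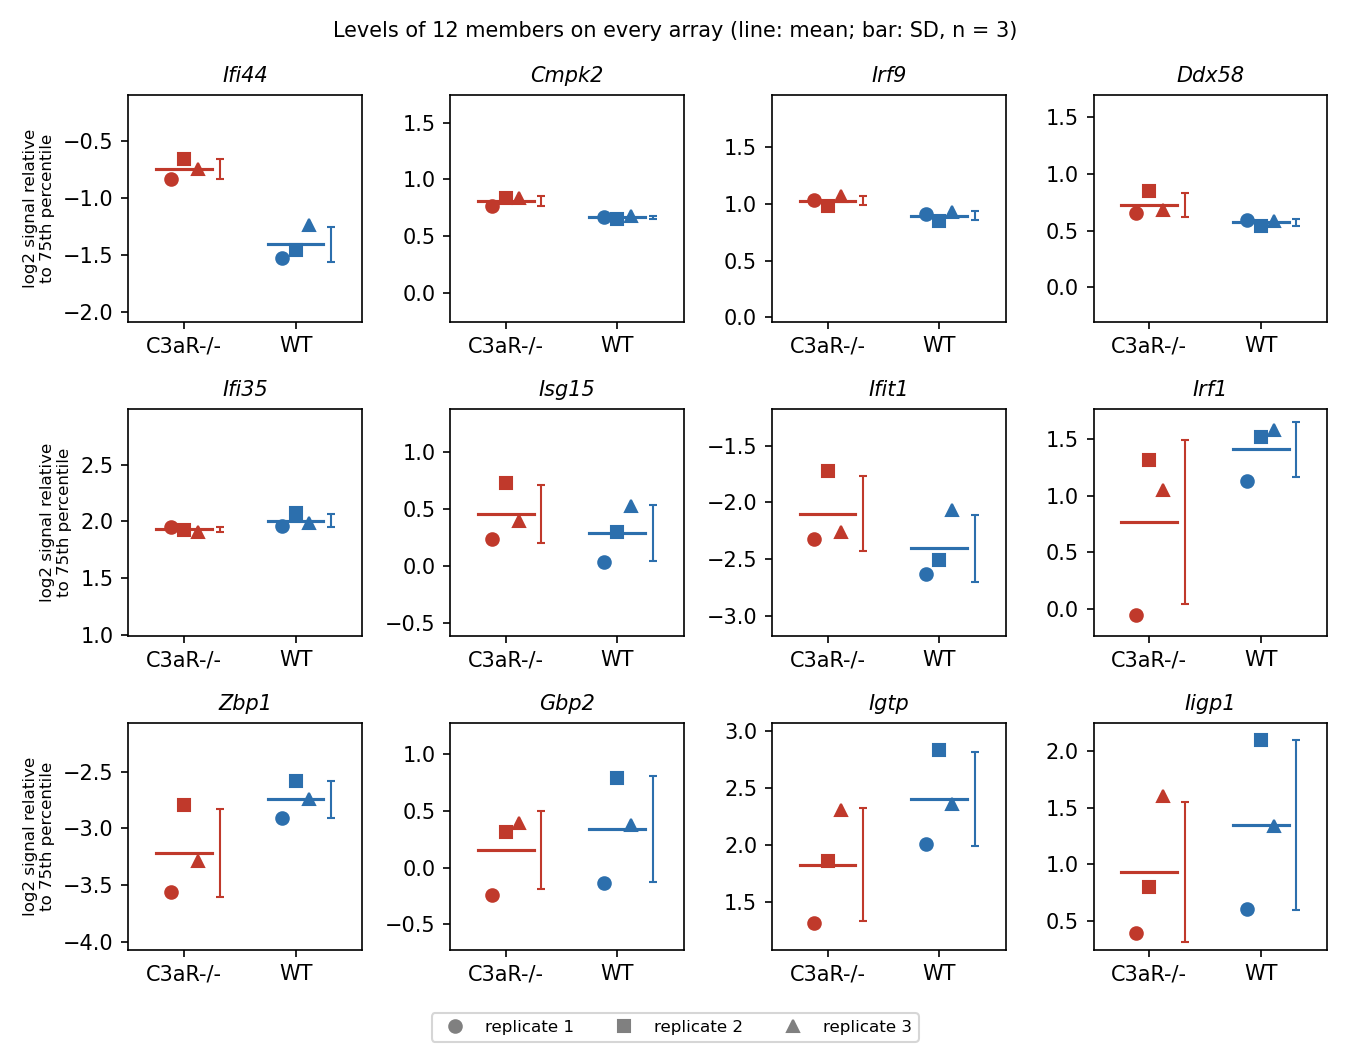
Log2 level relative to the array's 75th percentile on every array for 12 of the interferon-stimulated genes, C3aR-/- left and WT right in each panel, with the mean (line) and SD (bar, n = 3). Each panel spans 2 log2 units. The genotypes separate for Ifi44 at -0.74 against -1.41, whereas Irf1, Igtp and Iigp1 spread widely within a genotype.

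Members with and without the ISRE letters covered overlapping ranges of differences. The 13 tested genes with an ISRE match had 8 positive differences, 0 calls and a median of 0.11. The 11 tested genes with a window and no exact match had 8 positive differences, 1 call (Ifi44) and a median of 0.15. The Ifi44 window held the near match given above, so these genes were not shown to lack an ISRE. In the 8 genes without a window, 4 differences were positive and the median was 0.02.

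The members varied more among the arrays of a genotype than most genes did. Their median within-genotype SD was 0.207, against 0.121 over all genes tested, and 27 of the 32 lay above that median of all genes. The difference between genotypes was smaller than the wider of the 2 within-genotype ranges in 29 of 32 members, the others being Ifi44, Cmpk2 and Irf9. The share of all genes for which this held was not computed, so the count is not shown to be particular to the members. The variation ran the same way in most members. C3aR-/- replicate 2 was the highest array of its genotype in 24 of 32 members (75%), against 30.4% of all genes, and C3aR-/- replicate 1 was the lowest in 25 (78.1%), against 30.9% of all genes. Among the WT arrays, replicate 3 was the highest in 23 members (71.9%), against 27.9% of all genes. In 21 members C3aR-/- replicate 2 and WT replicate 3 were both the highest of their genotype, a count not taken over all genes. The median deviation of the members from their genotype mean was -0.17, 0.15 and -0.01 on C3aR-/- arrays 1 to 3 and -0.13, -0.02 and 0.16 on WT arrays 1 to 3. Members on one array share that array's RNA and scaling, so these counts describe 6 arrays and carry no test.

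The guanylate-binding and immunity-related GTPases kept another order from the Ifit and OAS families. WT replicate 2 was the highest WT array in 4 of the 5 (Gbp2, Irgm1, Igtp and Iigp1) and C3aR-/- replicate 3 the highest C3aR-/- array in 3 (Gbp2, Igtp and Iigp1). Their median deviation was -0.40, 0.08 and 0.24 on C3aR-/- arrays 1 to 3 and -0.39, 0.43 and -0.01 on WT arrays 1 to 3. The Ifit family stood at -0.13, 0.24 and -0.11 on C3aR-/- arrays and -0.15, -0.18 and 0.33 on WT arrays, and the 4 OAS genes at -0.21, 0.16 and 0.05 and at -0.16, -0.13 and 0.29. WT replicate 2 was thus high for the GTPases and low for the Ifit and OAS genes, while WT replicate 1 was low for all of them.

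**Figure D3:**
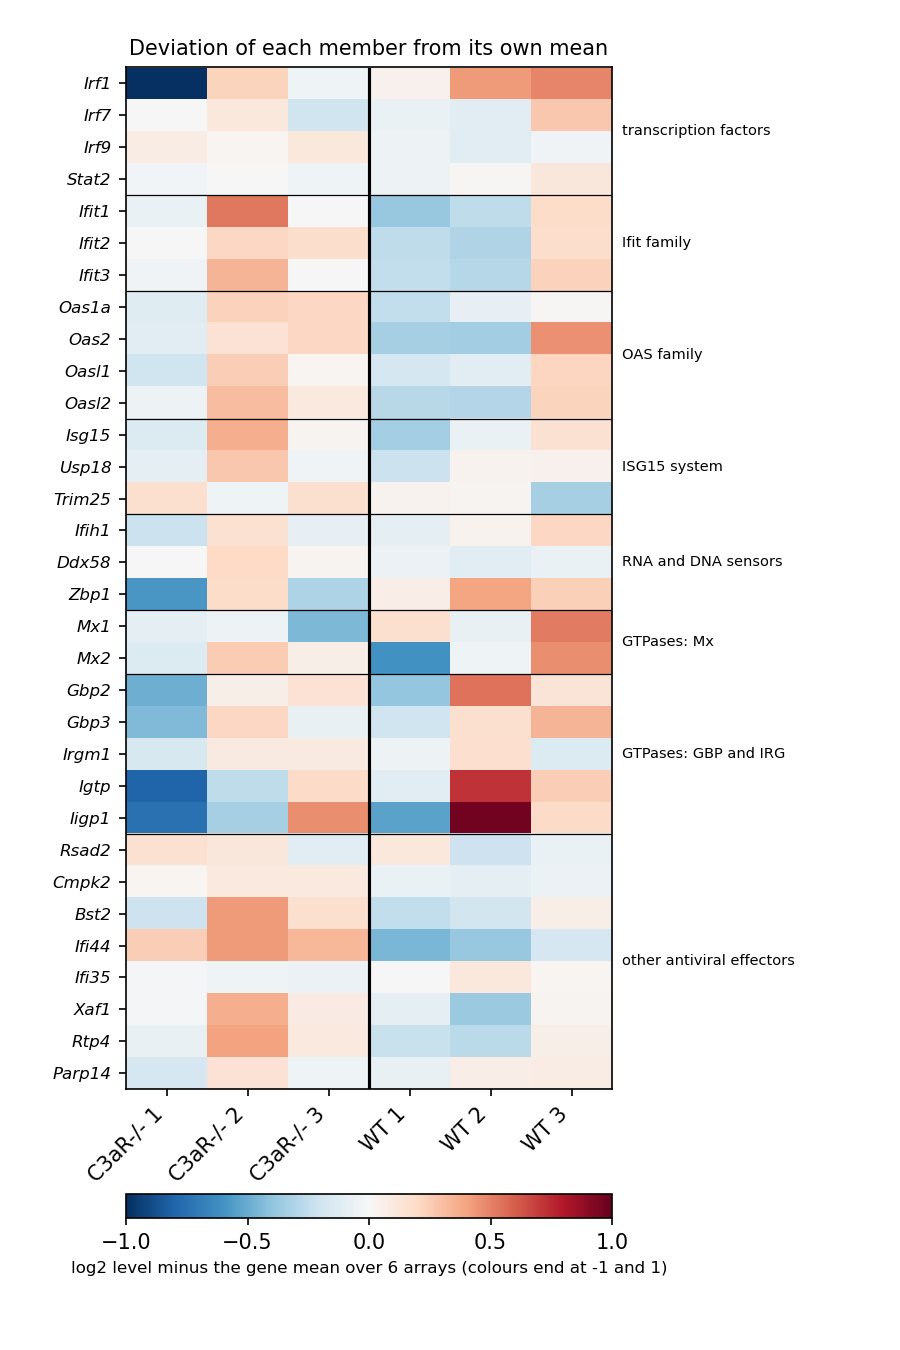
Log2 level of each tested interferon-stimulated gene on each array minus its mean over the 6 arrays, with C3aR-/- arrays left of the line and WT arrays right. C3aR-/- replicate 2 is the highest C3aR-/- array in 24 of 32 genes and WT replicate 3 the highest WT array in 23, whereas Igtp and Iigp1 peak on WT replicate 2.

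With 1 array left out, the members' median difference lay between 0.02 and 0.15, against 0.11 with all arrays. It was lowest without WT replicate 1 (0.02, with 17 of 32 positive) and without C3aR-/- replicate 2 (0.03, also 17 positive), the arrays that were low for WT and high for C3aR-/- in most members. The median over all genes was 0.02 in each of these fits, so without either array the members lay about level with all genes. C3aR-/- replicate 1 stood apart on the array itself, with 145 non-uniform spots against 2 to 8 on each other array and 30.2 on the second principal component against -20.0 and -18.7 on the other C3aR-/- arrays. Without it the members' median was 0.15, with 22 positive differences, and Ifi44 remained the single member called (0.71, adjusted p = 0.0292).

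Upstream of these genes, the interferons themselves were dim. Of 21 listed ligands, 7 passed the filter, 1 was called higher and 0 lower (14.3%, the same as the 14.3% of all genes). Of the 7, only Ifnl3 was well above background on all 6 arrays, and the others passed the filter only through the C3aR-/- arrays. Ifna5, an interferon alpha, measured -4.31, -4.62 and -4.89 in C3aR-/- cortex and was dim, not well above background, on all WT arrays (-6.61, -6.14 and -6.40). It was at least 1.43-fold higher in C3aR-/- cortex, setting its mean against the array floor in WT (limma adjusted p = 0.0071). It passed the filter only through the C3aR-/- arrays and its call rests on WT values below background, so the call gives no support for a rise of the ligands. With normexp background correction the difference was 0.31 and the call was lost (adjusted p = 0.0788). Ifnl3, an interferon lambda, differed by 0.0033 (adjusted p = 0.989). Ifnk, the epithelial interferon kappa, also passed only through the C3aR-/- arrays, with 1 of 3 WT arrays well above background, and did not pass the test (adjusted p = 0.0627). Interferon beta, Ifnb1, did not pass the filter, and Ifng, the gene of interferon gamma, differed by -0.40 (adjusted p = 0.562) with 2 of 3 WT arrays well above background.

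Of 18 receptors, kinases and regulators, 1 was called higher and 0 lower (5.56%), with a median difference of 0.02. Irf2, which competes with IRF1 for its sites, measured -0.35, -0.44 and -0.36 in C3aR-/- and -0.83, -0.74 and -0.87 in WT cortex (difference 0.43, adjusted p = 0.0167), and its call was lost when its probes were averaged (0.28, adjusted p = 0.17). The subunits of the type I receptor did not pass the test, with Ifnar1 at -0.01 (adjusted p = 0.96) and Ifnar2 at 0.11 (adjusted p = 0.363). Jak1, the kinase shared by the receptors, differed by 0.07 (adjusted p = 0.477) and the phosphatase Ptpn11 by 0.05 (adjusted p = 0.561), with a second probe at -0.15.

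Of 18 genes of nucleic acid sensing and interferon induction, 1 was called higher and 6 lower (38.9%, beside 14.3% of all genes), with a median difference of 0.03. The lower calls numbered 3 with median scaling and 1 without the filter on dim probes or with the replicate number as a block. Trex1, the exonuclease that removes cytosolic DNA, measured 1.13, 1.14 and 1.09 in C3aR-/- and 0.62, 0.77 and 0.62 in WT cortex (difference 0.45, adjusted p = 0.0158). Tlr3, the endosomal receptor of double-stranded RNA, measured -4.34, -4.17 and -4.23 in C3aR-/- and -3.56, -3.41 and -3.63 in WT cortex (difference -0.71, adjusted p = 0.00919). The groups did not overlap in either gene, and a second Tlr3 probe differed by -0.15. Tlr9, the receptor of CpG DNA, fell by 0.38 (adjusted p = 0.018), the adaptor Traf3 by 0.33 (adjusted p = 0.0217) and the transcription factor Irf5 by 0.51 (adjusted p = 0.0399). Rnaseh2b, a subunit of the enzyme that cleaves RNA in hybrids with DNA, fell by 0.38 (adjusted p = 0.0494). Adar, the RNA-editing enzyme, fell by 0.33 on its brightest probe (adjusted p = 0.0307) but differed by 0.19 on its second. With any 1 array left out, 1 to 3 genes of the list were called lower, and in the deposited log2 table Tlr3 differed by -0.13 (adjusted p = 0.568).

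A wider list of 53 other interferon-stimulated genes gave 47 tested genes, of which 0 were called higher and 3 lower (6.38%). The differences were positive in 17 and negative in 30, with a median of -0.06. Eif2ak2, the gene of the RNA-dependent kinase PKR, measured -0.82, -0.82 and -0.92 in C3aR-/- and -0.54, -0.50 and -0.48 in WT cortex, without overlap (difference -0.35, adjusted p = 0.0217). Parp9 fell by 0.33 (adjusted p = 0.0415), with a second probe at 0.01, and Oas1b, a catalytically inactive OAS gene, fell by 0.25 (adjusted p = 0.0478). The lower calls numbered 2 without C3aR-/- replicate 1, 1 without WT replicate 1 or C3aR-/- replicate 3, and 0 without any other array. Of the brightest genes that did not pass, Sp110 differed by 0.30 (adjusted p = 0.152), with its other kept probes at -0.42 and -0.036, the chemokine Cxcl11 by 0.63 (adjusted p = 0.122), with a second probe at -0.20, and Ly6e by -0.32 (adjusted p = 0.213).

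**Figure D4:**
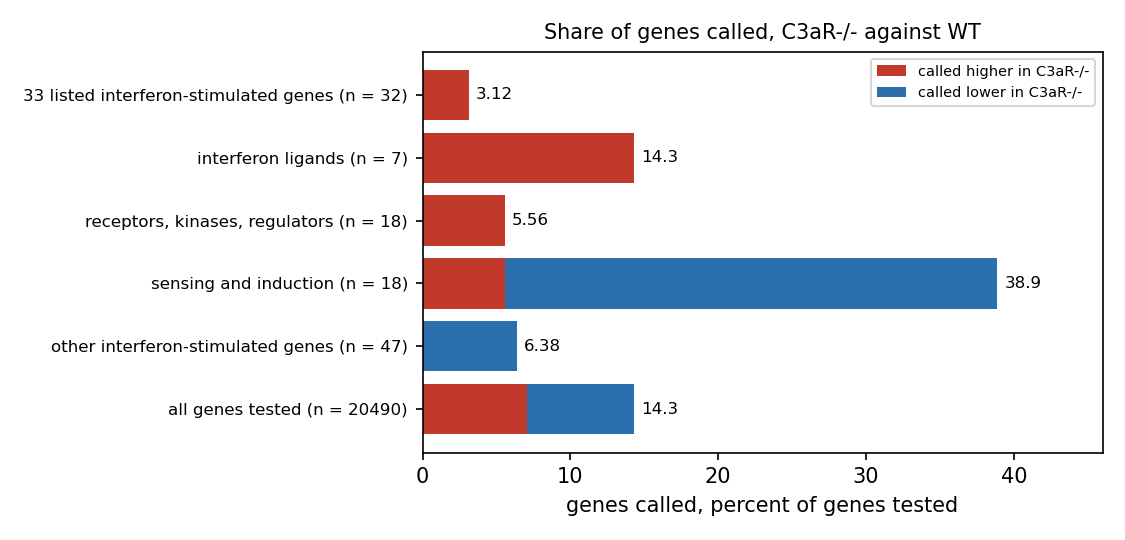
Percent of tested genes called higher (left part of each bar) and lower (right part) in C3aR-/- against WT cortex, for the interferon-stimulated genes, 4 further lists of the interferon pathway and all genes. The interferon-stimulated genes stand at 3.12%, the genes of sensing and induction at 38.9% and all 20490 genes at 14.3%.

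Markers of the cell types that could carry these transcripts were read on the same arrays. All 11 kidney epithelial markers were well above background on every array. All 11 had positive differences (median 0.23), with 2 called higher (Aqp2 and Slc5a2) and 0 lower, and their summed linear level was 787 to 810 times the 75th percentile on C3aR-/- arrays and 706 to 740 times on WT arrays. Of 16 macrophage and dendritic cell markers, all above background, 2 were called higher (Cd14 and Siglech) and 1 lower (Cd68), with 13 negative differences, and Cd14 was negative in the deposited log2 table. Their summed level was 33.5 to 43.4 on C3aR-/- arrays and 36.3 to 38.4 on WT arrays. The highest of these values was that of C3aR-/- replicate 2. Among the C3aR-/- arrays, it was also the highest in 24 of 32 interferon-stimulated genes, some of which were higher still on a WT array. The markers' median deviation from the genotype mean was -0.09, 0.29 and -0.16 on C3aR-/- arrays 1 to 3. Lyz2, the macrophage lysozyme, measured 2.16, 3.61 and 2.33 there, against 2.61, 2.90 and 2.71 on WT arrays. Not all of the 16 markers peaked on C3aR-/- replicate 2. The brighter Csf1r (2.93, 2.86 and 2.91) and Siglech (3.84, 3.69 and 3.70) were lowest on it, and Itgam, Itgax, Mrc1 and Flt3 were highest on replicate 1. On the WT arrays the markers' median showed no parallel, with deviations of -0.01, 0.02 and -0.03. Of 14 T and NK cell markers, 11 were tested, 0 were called higher and 1 lower (Klrb1c), with Ncr1, Gzmb and Prf1 below the filter. Klrb1c passed the filter only through the WT arrays, with 2 of 3 C3aR-/- arrays well above background. The summed level of the T and NK cell markers was 2.03 to 3.55 on C3aR-/- arrays and 3.85 to 4.03 on WT arrays. Of 8 tested B and plasma cell markers, 0 were called higher and 3 lower (Jchain, Mzb1 and Pou2af1), and 7 of the 8 differences were negative, with a median of -0.72. Pou2af1 also passed the filter only through the WT arrays, with 2 of 3 C3aR-/- arrays well above background. Jchain, the joining chain of secreted antibodies, differed by -2.65 (adjusted p = 0.0034). The summed level of the B and plasma cell markers was 43.6 to 56.1 on C3aR-/- arrays and 42.7 to 51.6 on WT arrays, most of it Xbp1, a factor not limited to plasma cells. Without Xbp1 the sum of the other 7 was 0.885 to 1.03 on C3aR-/- arrays and 3.26 to 4.48 on WT arrays. Most of that WT sum was Jchain, so the gap mainly reflects this gene. Jchain measured -0.94, -1.33 and -0.83 in C3aR-/- and 1.54, 1.34 and 1.98 in WT cortex. Cd79b, the next brightest of the 7, differed by -0.49 and did not pass the test (adjusted p = 0.392). Of 8 endothelial markers, 1 was called higher (Pecam1) and 1 lower (Kdr), with summed levels of 49.9 to 55.3 on C3aR-/- and 52.5 to 56.4 on WT arrays. The part of cell composition in the levels of the interferon-stimulated genes was not tested.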

How the data were processed

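Per the file headers, Agilent Feature Extraction 10.7.1.1 read the scanner images and gave each spot an intensity with background subtracted (the processed signal) and flags, and the authors also deposited a table of log2 values, used as an alternative only. Here log2(processed signal) minus the 75th percentile of the 59305 transcript spots of an array was used (662 to 827 before the log). Of the spots, 56.5% to 59.3% were well above background and 0 were saturated. The number of arrays limits precision. Control and outlier-flagged spots were left out, which removed 106 probes, and spots of a probe were averaged. Probes well above background on all arrays of a genotype were kept (30867), and the brightest stood for its gene. Levels of different probes were set against each other to pick and rank the brightest, to sum markers and to place dim probes beside the array floor. No fold was taken between genes. RefSeq GRCm38.p6 named 32989 of 56605 probes by accession, and the others kept their file name. Probe coordinates are those of the files (mm9).

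Genotypes were compared with limma 3.58.1 in R 4.3.3 (lmFit, eBayes, two-sided, adjusted over 20490 genes), and every adjusted p is from limma. The fit was tested on simulated data. A probe dim on all arrays of a genotype was given a bound: the brighter mean against, per array, the higher of its own value and the lowest signal of any probe well above background. Sample titles gave the groups and replicate numbers. Deviations of same-numbered arrays correlated at 0.04, -0.03 and -0.07. These values show no pairing but cannot exclude one, and the main fit used no pairs. Members and lists were chosen with earlier results of these data known. Every member was to be named, and from each other list up to 6 genes, called ones first by p, then the brightest. Rnaseh2b, Ifnb1, Ifng, Ifnar1, Ifnar2, Itgax, Mrc1 and Flt3 were named outside that rule, after their values were seen.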

Additional observations from a re-analysis of the deposited data

How the results depend on the processing

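The 17 alternatives were 11 processing settings and 6 left-out arrays, all chosen with earlier results known. Of the 32 members, 31 were called under none, and 0 members were called lower under any. In 21 members the sign was the same under all 17. Ifi44 stayed higher under every setting, by 0.43 to 0.75 (adjusted p 0.00641 to 0.0976), and 12 alternatives called it alone. The count of members called higher was 2 without the filter on dim probes (Ifi44 and Oas3, the latter below background on every array), 0 with the second brightest probe, and 0 to 1 over left-out arrays. The members' median was 0.07 to 0.16 over processing settings and 0.02 to 0.15 over left-out arrays. The count over all genes was 936 without the filter and 665 to 1667 over left-out arrays, against 2931. The share of calls that were higher was 49.3%, and 63.4% with median scaling (1820 higher, 1052 lower), where 21 members were positive and 11 negative. With the replicate number as a block, 650 genes and 0 members were called (Ifi44 adjusted p = 0.05), and 2 genes of the other interferon lists were called lower. Whether the replicate numbers pair the samples is not known. In those 4 lists, 3 genes were called higher, and 5 with normexp background correction, median scaling or the deposited log2 table, 6 with quantile normalisation or limma's trend and robust options, and 1 to 4 over left-out arrays. There were 9 lower calls, and 4 with median scaling, 1 without the filter, 5 with the mean of a gene's probes, and 1 to 5 over left-out arrays. Each of the 12 calls in these lists was lost under 1 to 11 alternatives, 1 for Tlr3 and 11 for Rnaseh2b and Oas1b. Ifna5 lost its call with normexp and was not tested when all 6 arrays had to be well above background. Among the markers, Cd14 reversed to -0.49 in the deposited log2 table and -0.061 with the mean of its probes, against 0.41. The causes were not tested. Dim probes limit Oas3, which has no fold, and the ligands, of which 7 of 21 could be tested and Ifna5 has only a bound.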
